A study of Mus musculus with 48 samples.

Results

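The 10 genes described here encode enzymes of the methionine cycle and of the adjoining choline pathway in mouse liver. They were taken by gene symbol, from a list selected on what earlier results of these same FPKM values showed of ethanol, genotype label and time, and all 10 (Mat1a, Mat2a, Gnmt, Ahcy, Bhmt, Bhmt2, Cbs, Cth, Pemt and Chka) were among the 15041 genes of the deposited table. Livers came from wild-type C57BL/6 mice and from mice labelled SHP knockout; SHP is an orphan nuclear receptor encoded by Nr0b2. Ethanol mice received a liquid diet with 5% ethanol for 10 days and a gavage of 5 g/kg ethanol at 9am on day 11. Control mice of both genotype labels received maltose in the diet and a gavage of 9 g/kg maltose dextrin, so every mouse was gavaged. Livers were taken at 6pm, midnight, 6am and noon, which made 16 groups of 3 mice, 48 libraries in all, with 24 under each genotype label. Because the gavage was given at a fixed hour, clock time and hours since the gavage cannot be told apart. Time of day below means the clock time of sampling and carries both.

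The methionine cycle makes S-adenosylmethionine, the methyl donor of most methylation reactions. Methionine adenosyltransferases build it, methyltransferases use it, and the S-adenosylhomocysteine left behind is cleaved to homocysteine. Homocysteine is either methylated back to methionine, with a methyl group from betaine or folate, or passed through transsulfuration to cysteine. Choline feeds this cycle through betaine, and it is also phosphorylated on the way to phosphatidylcholine, which the liver makes as well by methylating phosphatidylethanolamine. The liver is the main site of these reactions, and their disturbance by alcohol is long known.

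The reads recovered from the FPKM values numbered 9605636 to 19780144 per library. The genotype rests on its label: Nr0b2 was read in every library, at 22.1 ± 9.60 FPKM (fragments scaled by gene length and library size; SD, n = 12) in wild-type controls and 21.8 ± 9.53 FPKM (SD, n = 12) in knockout-label controls. The labels do not say which part of the gene was removed, so this level does not check the genotype. Hepatocyte markers were high throughout, with a summed level of 41692 to 78055 FPKM over 6 genes. Acute phase genes, which hepatocytes raise in inflammation, separated some libraries from the rest. The mean log2 level of 8 such genes was above 10 in 4 libraries: wild-type control 6pm replicates 0 and 2, and knockout-label ethanol replicate 1 at noon and at 6pm. It was 9.33 to 9.97 in all 3 knockout-label ethanol livers at midnight, against 5.61 to 6.04 in the wild-type ethanol livers at midnight.

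The 10 genes differed widely in level. Gnmt, which uses S-adenosylmethionine to methylate glycine, had a median of 1279.7 FPKM over the 48 livers, and Mat1a, the adenosyltransferase of the adult liver, had a median of 1225 FPKM. Their order was not fixed: Gnmt was above Mat1a in 24 of 48 livers. Bhmt followed at 214.9 FPKM, Cth at 177.4, Pemt at 130.1, Bhmt2 at 129.1, Cbs at 105.6 and Ahcy at 61.1 FPKM. Of these neighbours, Bhmt was above Cth in 28 livers and Pemt above Bhmt2 in 25, so those orders lay within the spread, while Cbs was above Ahcy in 42. Mat2a, the adenosyltransferase of most other tissues, had a median of 23.1 FPKM and Chka one of 7.51 FPKM, and each of the last 2 steps in the order held in 47 livers. Cth and Chka varied most, with a highest level 24.4 and 23.0 times the lowest, and Pemt least, at 2.53 times.

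**Figure D1:**
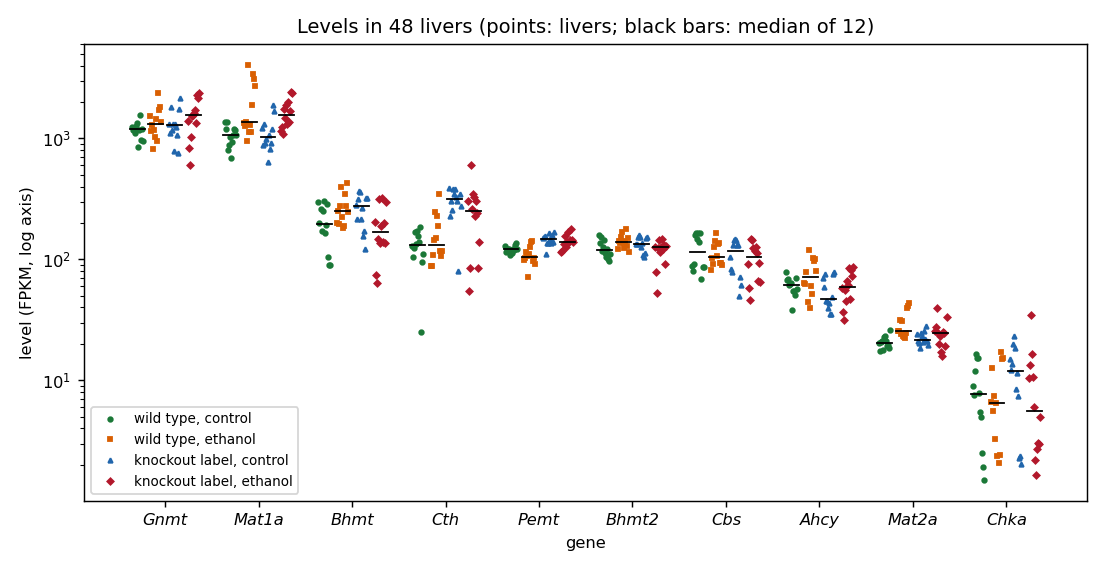
Level of each of the 10 genes (FPKM, log axis) in all 48 livers, ordered by median; each point is a liver, colours and shapes give genotype label and treatment, and black bars are medians of 12. Gnmt and Mat1a lie highest and Chka lowest, and Cth and Chka have the widest spread.

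Fold changes below are log2 differences of FPKM after TMM scaling (a factor per library that centres most genes) with 0.5 FPKM added, ± standard error (SE), from 1 limma fit to all 48 livers. Adjusted p-values are Benjamini-Hochberg over the 13765 genes tested, and a gene is said to rise or fall where that value is under 0.05. The 10 genes passed the filter on low values. Because they were picked with results of these comparisons known, their adjusted p-values describe where each gene stands in the fit of all genes and are no independent evidence. In wild type, ethanol raised 2 of the 10 and lowered 1 as a mean over the 4 times, where 30.3% of all genes tested were called, 16.6% higher and 13.7% lower. Under the knockout label it raised 5 and lowered none of them, against 31.6% of all genes, 16.8% higher and 14.8% lower. The difference between these ethanol effects was called for 1 gene, Pemt, against 8.01% of all genes. The median change of the 10 was 0.24 in wild type and 0.18 under the knockout label, beside 0.005 and 0.004 over all genes tested. With library totals alone as scaling, the median of all genes under the knockout label lay at -0.20 and that of the difference at -0.20, so knockout-label changes are relative to that shift. Under that scaling the knockout-label counts turned round: 1 of the 10 rose (Mat1a) and 3 fell (Bhmt, Bhmt2 and Chka), where 542 of 7301 genes called were higher, in place of 2310 of 4347. The difference between labels was then called for Bhmt, Bhmt2 and Mat2a, all below 0, and no longer for Pemt. The wild-type calls were of the same 3 genes under both scalings. Knockout-label and wild-type mice differed in 2 of the 10 under control diet, where 32.4% of all genes were called (15.4% higher and 17% lower), and in 1 under ethanol, where 28.3% were called (12.6% higher and 15.8% lower). The comparisons of genotype and of treatment share their control livers.

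Taken by time, the ethanol effect was called in wild type for 1 gene at 6am, 1 at noon, 5 at 6pm and none at midnight, where 12%, 7.45%, 18.4% and 9.65% of all genes were called. At 6pm in wild type Chka, Bhmt, Mat1a and Mat2a rose and Pemt fell. At midnight in wild type the smallest unadjusted limma p of the 10 was 0.0117, for Mat2a, and Pemt had 0.0394. Under the knockout label it was called for 2 genes at 6am, 5 at noon, 1 at 6pm and 3 at midnight, against 8.3%, 22.4%, 7.08% and 9.24% of all genes, at midnight 3.94% higher and 5.3% lower. At noon under that label Mat1a, Ahcy, Bhmt2 and Pemt rose and Chka fell, whereas at midnight Bhmt, Bhmt2 and Cth fell. At 6am Mat1a and Pemt rose, and at 6pm Cbs. Of these knockout-label rises 4 were not called with library totals alone: Bhmt2 at noon (0.18, adjusted p = 0.425), Pemt at noon (0.01, adjusted p = 0.944) and at 6am (0.14, adjusted p = 0.454), and Cbs at 6pm (0.29, adjusted p = 0.224). Pemt at 6am was also lost without any of the 3 controls or without ethanol replicate 0 or 2 of that time. Without the 4 libraries highest in acute phase genes, 11 of these 18 calls at single times remained, 7 were lost and 3 others were gained. Time of day itself was called for 2 of the 10 in wild-type controls, 5 in wild-type ethanol livers, 3 in knockout-label controls and 9 in knockout-label ethanol livers. The shares of all genes were 8.34%, 20.3%, 12.7% and 38.1%. With midnight left out of the joint tests, though its livers stayed in the fit, the 4 arms held 13 of these calls in place of 19. The shares of all genes in those tests are not reported here. Chka and Cbs varied with time of day in all 4 arms. No exact permutation test of 3 livers against 3 can go below p = 0.10, so the calls at single times rest on the spread pooled over all groups.

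**Figure D2:**
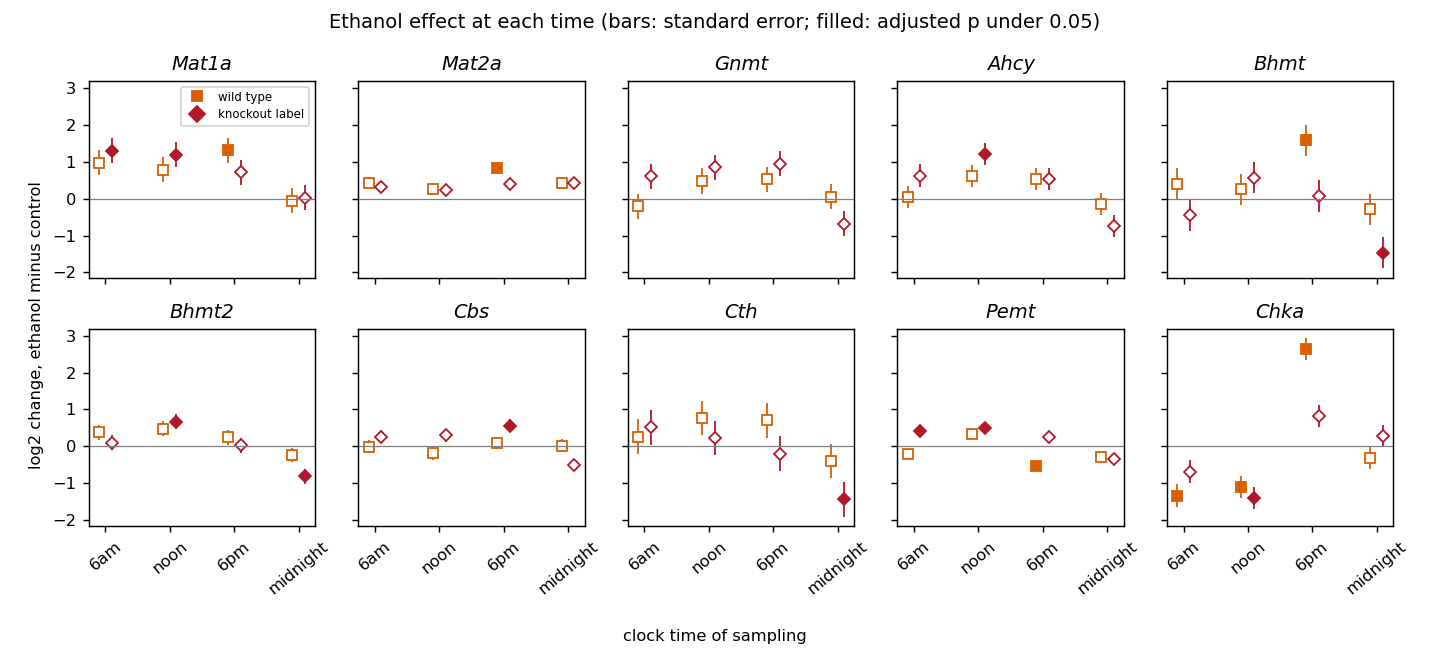
Ethanol effect on each gene at each clock time (log2 change, ethanol minus control, ± SE), in wild type (squares) and under the knockout label (diamonds); filled symbols have an adjusted p under 0.05. Chka goes from -1.34 and -1.10 at 6am and noon to 2.65 at 6pm in wild type, and most other genes lie lowest at midnight under the knockout label.

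Chka encodes choline kinase alpha, which phosphorylates choline in the first step of the route to phosphatidylcholine. In wild-type controls its level was 16.6, 15.2 and 15.2 FPKM at 6am, 7.80, 5.42 and 4.98 FPKM at noon, 2.496, 1.94 and 1.498 FPKM at 6pm and 9.03, 7.57 and 12.0 FPKM at midnight. In wild-type ethanol livers it was 7.44, 3.29 and 6.51 FPKM at 6am, 2.35, 2.06 and 2.42 FPKM at noon, 17.3, 14.9 and 15.3 FPKM at 6pm and 6.58, 12.7 and 5.57 FPKM at midnight. The hour of the highest mean thus lay at 6am in controls and at 6pm under ethanol, and at 6am, noon and 6pm the 2 treatments did not overlap. The mean at the highest time was 7.92 times that at the lowest in controls and 6.94 times under ethanol. In knockout-label controls Chka read 19.9, 23.4 and 18.3 FPKM at 6am, 8.53, 11.6 and 7.44 FPKM at noon, 2.27, 2.36 and 2.04 FPKM at 6pm and 15.1, 12.2 and 13.6 FPKM at midnight. In knockout-label ethanol livers it read 16.5, 10.7 and 6.05 FPKM at 6am, 2.21, 1.66 and 2.71 FPKM at noon, 3.01, 2.99 and 5.01 FPKM at 6pm and 10.4, 13.5 and 34.4 FPKM at midnight. Controls of both labels therefore had the same order of times, and the knockout-label ethanol livers had their highest mean at midnight, where 1 liver at 34.4 FPKM stood far above the others.

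**Figure D3:**
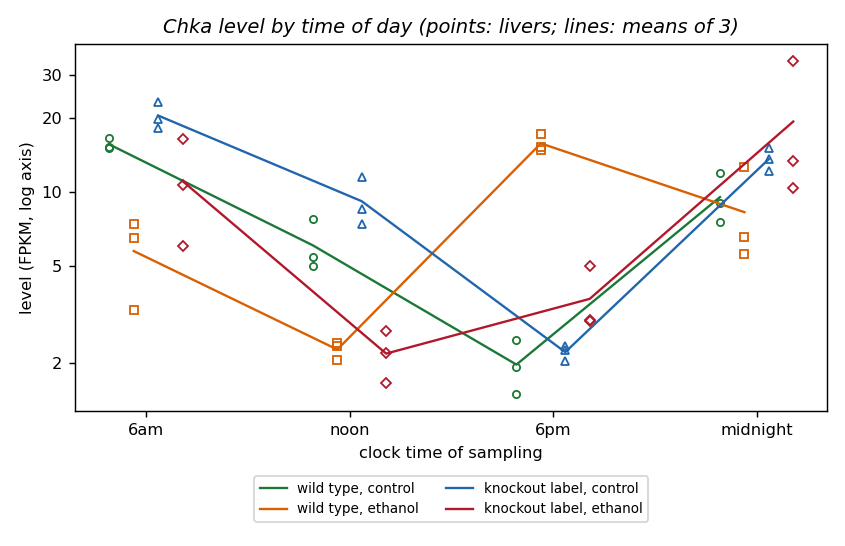
Chka level (FPKM, log axis) by clock time of sampling in the 4 arms; points are livers and lines join means of 3. At 6pm the wild-type ethanol livers, at 14.9 to 17.3 FPKM, stand above all other 6pm livers, which lie at 1.498 to 5.01 FPKM.

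In wild-type ethanol livers Chka fell by 1.34 ± 0.30 (SE) on the log2 scale at 6am (limma adjusted p = 0.00323) and fell by 1.10 ± 0.30 at noon (limma adjusted p = 0.0223). The noon call was lost when any of 5 of the 6 noon livers was left out. Chka rose by 2.65 ± 0.30 at 6pm (limma adjusted p = 2.13e-07), a 6.27-fold change, and the midnight change was -0.33 ± 0.30 (limma adjusted p = 0.564). These opposite changes left a mean over the 4 times of -0.03 ± 0.15 in wild type (limma adjusted p = 0.911). Under the knockout label Chka fell by 1.41 ± 0.30 at noon (limma adjusted p = 0.00118). The knockout-label changes of -0.69 at 6am and 0.82 at 6pm did not pass the test, although the 3 ethanol and 3 control livers did not overlap at either time. The ethanol effect on Chka varied with time of sampling under both labels (joint limma adjusted p = 2.84e-07 in wild type and 0.00371 under the knockout label). Clock time and time since the gavage are not separated by this test. Time dependence was called for 2 of the 10 in wild type and 5 under the knockout label, against 10.6% and 11% of all genes. A test of the difference between labels at each time was added after these values were seen. It was called at 6pm for Chka and Pemt and at the other times for none of the 10; the shares of all genes were 0.0509% at 6am, 1.72% at noon, 2.99% at 6pm and 0.247% at midnight. For Chka at 6pm the effect under the knockout label minus that in wild type was -1.83 ± 0.43 (limma adjusted p = 0.0158). Without the 4 libraries highest in acute phase genes that difference was -1.81 with an adjusted p of 0.114. Both wild-type control 6pm livers left out in that fit had Chka levels, 2.496 and 1.498 FPKM, on either side of the third, 1.94 FPKM.

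The 250 bases before the start of Chka and of Cbs are shown because these are the genes that varied with time of day in every arm. They are RefSeq sequences of GRCm38.p6, printed 5′ to 3′ on the strand of the gene, for chr19:3851523-3851772 (plus strand) and chr17:31637206-31637455 (minus strand). Capitals mark CCAAT boxes (CCAAT, or ATTGG on the other strand) and the E-box CACGTG, the element that CLOCK and its partner bind.
Chka: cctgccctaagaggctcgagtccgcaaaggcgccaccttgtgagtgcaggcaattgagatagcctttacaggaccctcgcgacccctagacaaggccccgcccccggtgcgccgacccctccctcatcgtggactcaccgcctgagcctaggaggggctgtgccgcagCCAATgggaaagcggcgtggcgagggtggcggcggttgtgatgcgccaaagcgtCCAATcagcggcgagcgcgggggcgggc
Cbs: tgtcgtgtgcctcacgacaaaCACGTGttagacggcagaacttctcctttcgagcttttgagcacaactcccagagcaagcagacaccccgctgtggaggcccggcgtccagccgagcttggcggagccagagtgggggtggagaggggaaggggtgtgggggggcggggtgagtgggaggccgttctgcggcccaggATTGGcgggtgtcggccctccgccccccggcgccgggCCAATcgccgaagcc
The Cbs window holds an E-box, 229 bases before the start, and 2 CCAAT boxes. The Chka window holds 2 CCAAT boxes and none of the other motifs searched on both strands, which were CACGTG, the D-box TTATGTAA and the REV-ERB half-site AGGTCA. In RefSeq windows of the 250 bases before the start, CACGTG was in 6.02% of 32851 promoters, TTATGTAA in 0.819%, AGGTCA in 14.0% and CCAAT in 33.8%. Of the 10 genes, 8 had such a window, and Mat1a and Cth were not matched. Among the 8, Cbs was the one with CACGTG, none held TTATGTAA, and Ahcy, Bhmt and Gnmt held AGGTCA, Bhmt at 3 places. A match of letters is no evidence that a factor binds there.

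Mat1a and Mat2a, which make S-adenosylmethionine, rose with ethanol under both labels. As a mean over the 4 times Mat1a rose by 0.76 ± 0.17 in wild type (limma adjusted p = 0.000827) and by 0.81 ± 0.17 under the knockout label (limma adjusted p = 0.000369), a fold of 1.69 and 1.76. The difference between labels was 0.06 ± 0.24 (limma adjusted p = 0.921). At 6pm the wild-type Mat1a levels were 1207, 1168 and 1064 FPKM in controls and 3427, 3122 and 2694 FPKM under ethanol, without overlap. Wild-type ethanol replicate 1 at 6am, at 4066 FPKM, was the highest of the 48 livers, while the other 2 livers of that group had 956 and 1135 FPKM; without it the wild-type change was 0.58. At midnight the ethanol effect on Mat1a was -0.05 ± 0.34 in wild type and 0.03 ± 0.34 under the knockout label, neither called.

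Mat2a rose by 0.49 ± 0.08 in wild type (limma adjusted p = 1.07e-05) and by 0.35 ± 0.08 under the knockout label (limma adjusted p = 0.000971). With library totals alone the second value was 0.10 and no longer called (adjusted p = 0.364). Its wild-type levels at 6pm were 19.6, 18.6 and 26.0 FPKM in controls and 39.4, 40.9 and 44.0 FPKM under ethanol. That 6pm rise, 0.84 ± 0.16 (limma adjusted p = 0.00032), was the one Mat2a call at a single time, although its change was above 0 at all 4 times under both labels; with library totals alone the knockout-label noon change was -0.25. Mat1a exceeded Mat2a by a median of 53.1 times in wild-type controls, 54.3 times in wild-type ethanol livers, 46.0 times in knockout-label controls and 71.4 times in knockout-label ethanol livers. The ranges overlapped, from 30.04 to 69.4 times in the first arm and from 27.8 to 127 times in the last. Of the Mat2a transcript 14.2% of 50-base stretches occur in another gene, mostly an antisense transcript over the same exons, and the kit did not mark strand.

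Gnmt and Ahcy stand on the side that uses the methyl group: Gnmt turns S-adenosylmethionine into S-adenosylhomocysteine, and Ahcy cleaves the latter. Neither was called in wild type, where Gnmt changed by 0.22 ± 0.17 (limma adjusted p = 0.365) and Ahcy by 0.27 ± 0.15 (limma adjusted p = 0.191). Under the knockout label Gnmt rose by 0.43 ± 0.17 (limma adjusted p = 0.049) and Ahcy by 0.41 ± 0.15 (limma adjusted p = 0.0383). Both calls were close to the threshold: with single libraries left out, Gnmt stayed called in 16 of 48 fits and Ahcy in 38, and with library totals alone neither was called (0.18 and 0.16). The clearest single time was noon for Ahcy, with 43.5, 35.1 and 35.4 FPKM in knockout-label controls and 60.9, 85.3 and 47.5 FPKM under ethanol, a rise of 1.21 ± 0.30 (limma adjusted p = 0.00453). The highest of these, replicate 1, is one of the libraries high in acute phase genes, and without it the rise was 0.92 (adjusted p = 0.0609). At midnight the knockout-label ethanol livers had 58.2, 36.9 and 31.5 FPKM of Ahcy, below all 3 controls at 58.6 to 75.4 FPKM, a change of -0.75 that did not pass the test (adjusted p = 0.115). Ahcy reads are uncertain in one respect: 68.7% of its 50-base stretches also occur elsewhere, 66% in Gm4737, a near copy read at a mean of 2.88 FPKM in wild-type controls.

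Bhmt and Bhmt2 return homocysteine to methionine, Bhmt with betaine and Bhmt2 with S-methylmethionine as the methyl donor. In wild-type controls Bhmt was lowest at 6pm, with 104.0, 89.3 and 90.4 FPKM against 164.6 to 305.1 FPKM at the other times. Time of day was not called for Bhmt in that arm (joint limma adjusted p = 0.119). Nor was time dependence of its ethanol effect in wild type (joint limma adjusted p = 0.126). Wild-type ethanol livers at 6pm had 277.0, 427.9 and 245.9 FPKM, all above the controls, and the rise was 1.59 ± 0.42 or 3.01-fold (limma adjusted p = 0.00805). Without the 4 libraries highest in acute phase genes, 2 of which are controls of this comparison, the change was 1.71 and not called (adjusted p = 0.0662). Under the knockout label the midnight livers went the other way: Bhmt read 281.4, 214.7 and 318.5 FPKM in controls and 202.2, 73.6 and 63.9 FPKM under ethanol, a fall of 1.46 ± 0.42 (limma adjusted p = 0.0257). Bhmt2 in the same livers read 134.6, 134.1 and 152.6 FPKM in controls and 127.7, 79.0 and 52.6 FPKM under ethanol, and fell by 0.81 ± 0.20 (limma adjusted p = 0.0105). Ethanol replicates 1 and 2 were the low ones and replicate 0 lay close to the controls. Leaving out ethanol replicate 2 or control replicate 2 ended both calls, and for Bhmt so did leaving out ethanol replicate 1 or control replicate 0, with changes of -1.94 to -1.18 for Bhmt and -1.09 to -0.52 for Bhmt2 over the fits without 1 library. As a mean over the 4 times neither gene was called under either label, and the Bhmt difference between labels, -0.81 ± 0.30, had a limma adjusted p of 0.0868. That difference was called without knockout-label control 6pm replicate 0 (-0.95, adjusted p = 0.0312), ethanol 6am replicate 1 (-0.91, adjusted p = 0.0493) or ethanol midnight replicate 0 (-0.93, adjusted p = 0.0345). With library totals alone both genes fell under the knockout label (Bhmt -0.57, adjusted p = 0.0164; Bhmt2 -0.26, adjusted p = 0.0212), and both differences between labels were called (-1.05, adjusted p = 0.00665, and -0.46, adjusted p = 0.0112). Bhmt shares 24.1% of its 50-base stretches with Gm5096, and an antisense gene, Gm15622, overlaps it and holds 1.6% of them. Gm15622 was read at a mean of 179.6 FPKM in wild-type controls, where Bhmt had 200.8 FPKM, and the kit did not mark strand. How far the values of both genes count the same reads was not tested.

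Cbs and Cth carry out the 2 steps of transsulfuration, from homocysteine to cystathionine and on to cysteine. Cbs was high at 6am and noon and low at 6pm and midnight. In wild-type controls it read 159.4, 166.3 and 146.9 FPKM at 6am and 69.2, 86.7 and 85.9 FPKM at 6pm, without overlap. The mean at the highest time was 1.95 times that at the lowest in wild-type controls, 1.58 times in wild-type ethanol livers, 2.31 times in knockout-label controls and 2.12 times in knockout-label ethanol livers. All 4 arms passed the test of time of day (limma adjusted p between 2.25e-06 and 0.00629) and all 4 had their highest mean at 6am. Its mean over the times did not pass the test of ethanol (wild type -0.03 ± 0.09, limma adjusted p = 0.856; knockout label 0.15 ± 0.09, limma adjusted p = 0.196). Knockout-label controls were below wild-type controls, with a log2 difference of -0.32 ± 0.09 (limma adjusted p = 0.00477), which with library totals alone was -0.18 and not called (adjusted p = 0.0885). At 6pm Cbs rose under the knockout label by 0.56 ± 0.18 (limma adjusted p = 0.0442), a call lost without control replicate 0 or 1 or ethanol replicate 1 of that time; without the 4 libraries highest in acute phase genes the change was 0.32 (adjusted p = 0.311).

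Cth had the largest difference between genotype labels among the 10. Control livers had a mean of 128.4 ± 42.6 FPKM (SD, n = 12) in wild type and 302.4 ± 87.1 FPKM (SD, n = 12) under the knockout label. Of the 12 knockout-label controls 11 were above the highest wild-type control, at 184.5 FPKM, and the other, 6pm replicate 0, read 79.7 FPKM. The difference was 1.13 ± 0.24 or 2.18-fold (limma adjusted p = 0.000456), and it was called in each of 48 fits without 1 library. Under ethanol the difference of 0.57 ± 0.24 did not pass (limma adjusted p = 0.069). At midnight the knockout-label livers read 392.0, 228.5 and 304.5 FPKM in controls and 300.9, 54.5 and 85.5 FPKM under ethanol, a fall of 1.44 ± 0.47 (limma adjusted p = 0.0476) that stayed called in 16 of 48 fits without 1 library. Cth was low in some livers with a high acute phase mean and not in others. The low knockout-label control, 6pm replicate 0, had an acute phase mean of 8.76, the highest of its arm. The knockout-label ethanol livers at midnight stood at 9.33 to 9.97. The lowest Cth of all, 24.9 FPKM, was in wild-type control 6pm replicate 0, with an acute phase mean of 10.66, and knockout-label ethanol 6pm replicate 1, at 11.9, read 84.6 FPKM. Wild-type control 6pm replicate 2, at 10.28, read 111.2 FPKM, and knockout-label ethanol noon replicate 1, at 11.74, read 227.3 FPKM. The highest Cth of all, 607.6 FPKM, was in knockout-label ethanol 6am replicate 0, at 9.52. The part of the acute phase in the Cth values was not tested. In bulk liver, fewer cells of a type and less RNA per cell cannot be told apart.

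**Figure D4:**
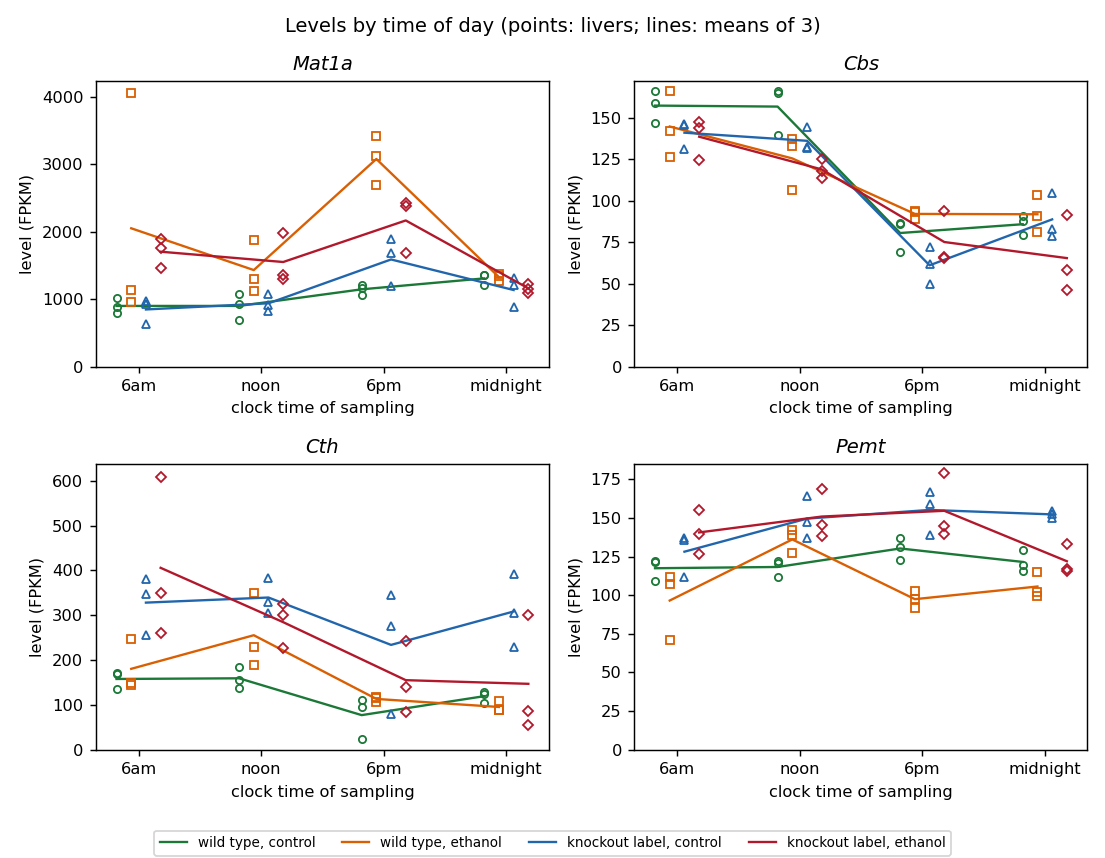
Levels of Mat1a, Cbs, Cth and Pemt (FPKM, axes from 0) by clock time of sampling; points are livers and lines join means of 3 for the 4 arms. Cbs is high at 6am and noon in every arm, Cth is higher in knockout-label controls, and wild-type ethanol Mat1a reaches 2694 to 3427 FPKM at 6pm.

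Pemt methylates phosphatidylethanolamine to phosphatidylcholine and is a large user of S-adenosylmethionine in liver. It was the one gene of the 10 whose mean ethanol effect differed between labels. In wild type it fell by 0.17 ± 0.07 (limma adjusted p = 0.0469), a call that held in 24 of 48 fits without 1 library. Under the knockout label it rose by 0.21 ± 0.07 (limma adjusted p = 0.0135), but with library totals alone this value was -0.05 (adjusted p = 0.547). The difference between labels was 0.38 ± 0.09 (limma adjusted p = 0.00912), called in 48 of 48 fits without 1 library, and 0.14 with library totals alone, not called (adjusted p = 0.243). The deposited knockout-label means were 146.3 ± 15.4 FPKM in controls and 142.0 ± 18.9 FPKM under ethanol (SD, n = 12 each), and after TMM scaling 133.8 ± 23.0 and 156.0 ± 32.5. In wild type the deposited means were 121.8 ± 7.83 FPKM in controls and 108.9 ± 20.03 FPKM under ethanol (SD, n = 12 each). At 6pm the wild-type levels were 131.1, 136.9 and 122.6 FPKM in controls and 97.4, 102.9 and 92.0 FPKM under ethanol, a fall of 0.53 ± 0.13 (limma adjusted p = 0.00446). At noon the 3 wild-type ethanol livers, 127.1 to 142.0 FPKM, lay above the 3 controls, 111.8 to 122.2 FPKM, and that change of 0.33 was not called (adjusted p = 0.113). Under ethanol, Pemt was higher under the knockout label than in wild type by 0.49 ± 0.07 (limma adjusted p = 9.41e-07).

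Across the 16 group means of log2 level, Mat1a moved most closely with Ahcy (Pearson r = 0.82), with Mat2a (0.80) and with Gnmt (0.74), Gnmt with Ahcy (0.81), and Bhmt with its neighbour on chromosome 13, Bhmt2 (0.81). The lowest value was that of Pemt and Chka (-0.55). Chka was within 0.11 of 0 with Bhmt, Mat2a, Cbs and Cth. These are descriptions over 16 groups that share the scaling of their libraries. Outside the 10, the genes most like Chka included Gm16066 (r = 0.971), an antisense gene that overlaps the start of Chka and holds 0.2% of its 50-base stretches, and Mical2 (0.945). The genes most like Cbs were Amdhd1 (r = 0.884) and Hal (0.880), both enzymes of histidine breakdown, and Slc25a42 (0.874). For Mat1a they were Creb3l3 (0.938), Rbp4 (0.929) and Surf2 (0.926), and for Mat2a Rit1 (0.934), Gtf2h1 (0.923) and Ddx28 (0.919). For Bhmt and Ahcy the closest were their own antisense gene or near copy, Gm15622 (0.988) and Gm4737 (0.963).

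Of 57 other genes of these and adjoining pathways, ethanol raised 9 and lowered 12 in wild type, and raised 9 and lowered 9 under the knockout label, with median changes of -0.02 and 0.01. Of all genes tested, 16.6% were higher and 13.7% lower in wild type, and 16.8% and 14.8% under the knockout label. The counts of the lists below stand beside these same shares. Among 13 folate genes 2 rose and 3 fell in wild type and none rose and 3 fell under the knockout label. Mtr, the folate-dependent methionine synthase, fell by 0.47 ± 0.07 and by 0.72 ± 0.07. In choline oxidation 2 of 5 genes fell in wild type, the transporter Slc44a1 (-0.35 ± 0.09) and Aldh7a1 (-0.29 ± 0.09), which oxidises betaine aldehyde; none passed under the knockout label. Of 8 genes of phosphatidylcholine synthesis, Pcyt2, of the ethanolamine branch, fell under both labels, by 0.46 ± 0.05 and by 0.18 ± 0.05. This difference between labels was itself called (0.28 ± 0.07, limma adjusted p = 0.0138). Before TMM scaling the Pcyt2 falls were alike, with deposited means of 129.4 and 94.9 FPKM in wild-type control and ethanol livers. Under the knockout label they were 133.8 and 99.8 FPKM. Results of the 57 genes with library totals alone are not reported here. Among 7 users of S-adenosylmethionine, Hnmt, which methylates histamine, fell by 0.97 ± 0.15 and by 0.88 ± 0.15, while Nnmt, which methylates nicotinamide, rose by 0.99 ± 0.34 and by 1.40 ± 0.34.

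Downstream of cysteine 2 of 10 genes rose and 1 fell in wild type, and 3 rose under the knockout label. Gss, the second enzyme of glutathione synthesis, rose by 0.94 ± 0.08 and by 0.49 ± 0.08, less under the knockout label (-0.45 ± 0.12, limma adjusted p = 0.0161). Cdo1, which oxidises cysteine, rose by 0.52 ± 0.13 under the knockout label and changed by 0.15 ± 0.13 in wild type. Among 9 genes of polyamine synthesis and methionine salvage 3 rose and 1 fell in wild type and 3 rose under the knockout label. Odc1, which makes putrescine, rose by 0.98 ± 0.09 and by 0.34 ± 0.09, and Srm, the spermidine synthase, by 0.84 ± 0.16 and by 0.46 ± 0.16. The deposited Odc1 means were 10.3 and 20.2 FPKM in wild-type control and ethanol livers, and 11.8 and 12.8 FPKM under the knockout label. Mtap, which recycles the methylthio group, rose by 0.48 ± 0.06 in wild type and changed by -0.08 ± 0.06 under the knockout label. For Odc1 and Mtap the difference between labels was called (-0.64 ± 0.13, limma adjusted p = 0.00231, and -0.55 ± 0.08, limma adjusted p = 5.84e-05). At midnight under the knockout label, where Bhmt, Bhmt2 and Cth fell, 14 of the 57 fell and 2 rose, against 5.3% and 3.94% of all genes. Of 6 periportal hepatocyte markers 3 fell there, and the median change of all 6 was -1.21. In wild type at midnight that median was -0.53 and no periportal marker was called. No pericentral marker passed the test under the knockout label at midnight, with a median of -0.34. As a mean over the 4 times, 3 of 6 pericentral markers rose with ethanol and none fell under each label. The medians were 0.40 in wild type and 0.37 under the knockout label, where 16.6% and 16.8% of all genes rose. Under the knockout label 3 of 6 also rose at 6am and at noon, with a median of 0.88 at both. Of the 13765 genes tested, 654 and 1750 rose at those times.

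Markers of other cells also moved between the groups. Over the 4 times, 4 of 5 Kupffer cell genes and 3 of 6 stellate cell genes were higher in knockout-label than in wild-type controls, where 15.4% of all genes were. Under ethanol 5 of 5 Kupffer cell, 4 of 4 neutrophil and 7 of 8 acute phase genes were higher under the knockout label, against 12.6% of all genes. The summed Kupffer level was 72.7 to 234.1 FPKM in wild-type controls and 170.7 to 632.7 FPKM in knockout-label controls, with no gene of the list at 0 in any library. The summed neutrophil level was 1.16 to 6.42 FPKM in wild-type ethanol livers and 2.36 to 187.5 FPKM in knockout-label ethanol livers, with S100a8 and Retnlg at 0 in some. The summed hepatocyte level, most of which is Alb, overlapped in all 4 arms. Of the 6 hepatocyte genes, 2 were lower under the knockout label in controls and 1 under ethanol, against 17% and 15.8% of all genes. With ethanol 2 of the 6 rose under the knockout label, against 16.8% of all genes, and none in wild type. The part of these markers in the differences between labels was not tested.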

How the data were processed

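Poly(A) RNA of 48 mouse livers was sequenced as single reads of 50 cycles with a kit that does not mark strand (TruSeq v2), per the labels' protocols; Novoalign and GRCm38 are named in the submitters' processing notes, without a version or a counting rule. The authors deposited FPKM for 15041 Ensembl genes. Treatment was read from the sample titles, which fit the study's design text, since a separate treatment tag differed from the title in 24 libraries; time was read from its own label. Steps between FPKM values gave back whole numbers for 100% of genes (relative tolerance 1e-09), which were taken as reads. They are the smallest whole numbers that fit each gene, so a common multiple of them would go unseen. Depths and TMM factors (0.81 to 1.3, with trims of 30% and 5%) were computed from them. Scaled FPKM plus 0.5 were put on the log2 scale, genes at 0.5 FPKM or more in at least 3 libraries were kept (13765, with 1276 removed), and limma 3.58.1 (R 4.3.3), with a mean-variance trend, was fitted to 16 group means, with joint tests for time of day. The added 0.5 understates changes of low genes such as Chka. The fit was tested on simulated data. The design text describes groups of 3 mice, so replicates are taken as separate animals. No label names a batch.

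The members, gene lists and tests were chosen with earlier results of these data known. All 10 members are named; of the other pathway genes up to 3 per list with the smallest adjusted p of ethanol, plus those whose labels differed, could be named, and per member the 3 genes with the highest Pearson r. Some genes that met this rule are counted but are not reported here by name. Alternatives were pseudocounts of 0.1 and 1 FPKM, no filter, library totals alone, voom on the recovered reads (4132 genes called for ethanol in wild type and 4326 under the knockout label), a replicate block and leaving out each library. Positions and 50-base stretches come from GENCODE M21 on GRCm38, promoters from RefSeq.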

Additional observations from a re-analysis of the deposited data

Results flagged for a closer look

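The mean ethanol effect on Pemt differed between genotype labels by 0.38 ± 0.09 on the log2 scale (knockout label minus wild type, limma adjusted p = 0.00912), listed because the difference itself passed the test. At single times, in tests added after the values were seen, 2 further differences passed at 6pm. That of Pemt was 0.79 ± 0.18 (limma adjusted p = 0.0157), lost without wild-type ethanol replicate 2 or knockout-label control replicate 1 of that time, with values of 0.69 to 0.95 over the fits without 1 library. That of Chka was -1.83 ± 0.43 (limma adjusted p = 0.0158), called in 48 of 48 fits without 1 library. Neither 6pm difference was called without the 4 libraries highest in acute phase genes (0.80 and -1.81), and Pemt was not called with library totals alone (0.41), under which those of Bhmt (-1.90) and Mat2a (-0.81) were called at 6pm.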

How the results depend on the processing

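The numbers of the 10 genes called were the same or within 1.5 times the reported ones with pseudocounts of 0.1 and 1 FPKM, with no filter on low values and with voom. With library totals alone, 3 of the 10 differed in ethanol effect between labels (Bhmt, Bhmt2 and Mat2a) in place of 1 (Pemt), 5 differed between labels under ethanol (Bhmt, Bhmt2, Cbs and Mat2a lower, Pemt higher) in place of 1 (Pemt), and ethanol effects that vary with time were called 3 times in place of 7. In controls, Pemt (0.26) and Chka (0.40) were then called higher under the knockout label beside Cth, and Cbs was not called. All genes were shifted under that scaling. Their median was -0.199 for the difference in ethanol effect, -0.081 between labels under ethanol and 0.111 between labels in controls. These calls are relative to that shift, and the shares of all genes called in those comparisons are not reported here. The mean knockout-label ethanol effect on Pemt then changed sign (-0.046). Without the 4 libraries highest in acute phase genes, an alternative chosen after seeing the data, ethanol calls under the knockout label were 3 in place of 5 and differences between labels under ethanol 4 in place of 1. Of the 13765 genes tested, 4001 were called for ethanol under the knockout label in that fit, in place of 4347. The share of all genes that differed between labels under ethanol in it is not reported here. At 6pm in wild type Mat1a (1.31 before, 1.32 then), Bhmt (1.59, 1.71) and Pemt (-0.53, -0.56) were then no longer called, at changes as large. Control replicates 0 and 2 of that group were left out in that fit. For the knockout label, Mat1a (1.195, 0.93), Bhmt2 (0.67, 0.52) and Ahcy (1.21, 0.92) at noon and Cbs at 6pm (0.56, 0.32) were no longer called and had smaller changes, while Mat1a and Mat2a at 6am in wild type and Cbs at midnight under the knockout label were called. With midnight left out of the tests but not of the fit, also chosen after seeing the data, time dependence was called 3 times, over fewer times. What caused any of these changes in calls was not tested.

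With each library left out in turn, calls ranged from 2 to 4 for ethanol in wild type, 3 to 6 under the knockout label, 1 to 2 for their difference, 2 to 3 between labels in controls, 1 to 3 between labels under ethanol, 15 to 22 at single times, 17 to 22 for time of day and 6 to 10 for time dependence.

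Replicate numbers were not taken to pair the livers. Within a label and time, deviations of same-numbered control and ethanol livers correlated between -0.567 and 0.447. The value was over 0.1 in 4 of 24 pairs of livers, among them each wild-type noon pair (0.123, 0.117 and 0.156). Livers of unlike number were not compared, so these values cannot decide whether the numbers mark a pairing. With the replicate block, the calls were 2 for ethanol in wild type, 4 under the knockout label, 1 for the difference, 18 at single times, 19 for time of day and 7 for time dependence. Not called with the block were ethanol effects on Pemt in wild type (adjusted p = 0.052), on Gnmt under the knockout label (adjusted p = 0.0538) and on Cth at midnight under that label (adjusted p = 0.0515), and Mat2a at 6am in wild type was called (adjusted p = 0.0489). The planned edgeR fit was not run, because the deposited values are FPKM; voom on the recovered reads took its place.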
